A study of Mus musculus with 5480 samples.

Results

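The 9 genes described here encode receptors, co-receptors, a ligand-binding inhibitor and the transcription factors of the Hedgehog pathway: Ptch1, Smo, Boc, Cdon, Gas1, Hhip, Gli1, Gli2 and Gli3. They were taken by name from a table of 18072 genes, all 9 were found, and they were followed through every mesenchymal subtype, age and treatment of the study. The table held read counts of 5480 single cells sorted from distal mouse lung, labelled mesenchymal and given 1 of 16 subtype names by the authors. The cells came from 10 mice, 1 female and 1 male in each of 5 groups. Of these groups, 4 were kept in normal air and collected at embryonic day 18.5 (E18.5) or at postnatal day 1, 7 or 21 (P1, P7, P21). The remaining group was exposed to hyperoxia, oxygen-enriched air, and collected at P7. Strain, oxygen level and length of exposure were not given in the sources used here, and no transgene or deletion is named in the labels. The study asked how mesenchymal subtypes change as the lung matures and how neonatal hyperoxia changes them.

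Hedgehog ligands are secreted proteins that act on neighbouring cells. Without ligand, the receptor Ptch1 holds the membrane protein Smo inactive. When ligand binds Ptch1, Smo is released, moves into the primary cilium and lets the Gli transcription factors switch on target genes. Gli1, Ptch1 and Hhip are themselves induced by the pathway in many tissues, so their transcripts are widely read as its output, and Ptch1 and Hhip then bind ligand and limit further signalling. In the developing lung the epithelium releases Shh, and the surrounding mesenchyme, including the precursors of airway smooth muscle, receives it.

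Levels are given in CPM, the usual scaling of a gene's reads by the total of its library, here with the totals adjusted between libraries by trimmed means (TMM). A library is the sum of all cells of 1 subtype in 1 mouse, with at least 10 cells, and there were 64. Where a pair of values is given, the female mouse comes first. Single cells held 39358 to 5177020 reads (median 774305), and mice held 294154721 to 671766116 reads in 311 to 633 cells. Reads were not tagged by molecule, so copies of 1 molecule cannot be told apart. Intervals on ratios of reads below take each read as independent and may be too narrow for that reason. Intervals on shares of cells cover counting error only, and no interval covers the spread between mice. Each group has 2 mice. P-values for age and hyperoxia measure the spread between mice left after a term for sex, pooled over groups. Those between subtypes measure the spread left after a term for each mouse, pooled over all libraries. Sequencing runs followed the groups in part: the hyperoxia mice came almost entirely from runs of their own, the 4 normal-air males shared a run, the E18.5 and P1 females shared another, and FP7 and FP21, the normal-air females at P7 and P21, each came almost entirely from 1 run. Summed markers of other cells in single libraries reached 1031 CPM for epithelial (7 genes, in the 14 early alveolar fibroblasts of the E18.5 female), 626 for mesothelial and at most 344 for the cartilage, immune, endothelial, glial and erythroid lists. Each subtype with a marker list of its own carried those markers, with 1 exception. Cells labelled airway smooth muscle at P21 had less of the contractile genes than early airway smooth muscle. In the P21 cells Myh11 (smooth muscle myosin) stood at a mean of 196 ± 75.8 CPM (SD, n = 2) and Actg2 (smooth muscle actin) at 298 and 179 CPM. In early airway smooth muscle at P7 Myh11 stood at 826 and 1005 CPM and Actg2 at 2978 and 4022 CPM. Lgr6, another marker on that list, was kept, at 140 and 218 CPM. The vascular smooth muscle list (Acta2, Myh11, Cnn1, Pln) summed to 1642 to 2139 CPM in the P21 airway label. In early airway smooth muscle this list summed to 11795 to 16117 CPM. At P21 it summed to 63.8 to 128 CPM in alveolar and 70.2 to 172 CPM in adventitial fibroblasts. The cells are therefore called by their label only.

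Per kilobase of exon, the scale on which genes can be set side by side, the median level over the 64 libraries was similar for Boc (15.4 CPM per kb), Hhip (15.3) and Gas1 (13.9). Ptch1 (8.94) and Smo (8.66) were lower, the 3 Gli genes lay near 3.5 (Gli3 3.63, Gli1 3.54, Gli2 3.49), and Cdon was lowest (0.153). The spread between subtypes was very unequal. The highest library held 3.01 times the median for Ptch1, 3.02 times for Smo, 3.15 times for Gli3 and 3.67 times for Gli1, against 48.7 times for Hhip and 136 times for Cdon. Boc (5.79 times), Gli2 (7.67 times) and Gas1 (9.33 times) lay between. Hhip ran from 0 CPM in 10 libraries to 6785 CPM, and Cdon from 0 CPM in 14 libraries to 161 CPM. Ptch1 (0 to 382 CPM) and Smo (0 to 147 CPM) were read in all but 1 library, and Gli3 in all. Transcripts of the receptor and the Gli factors were thus spread over most of this mesenchyme, though Gli1 had no read in 4 libraries and Gli2 in 6. Hhip and Cdon had peaks in particular subtypes. Outside its peak Hhip was still widely read: 55.4% of all cells had a Hhip read, against 10.1% for Cdon.

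**Figure D1:**
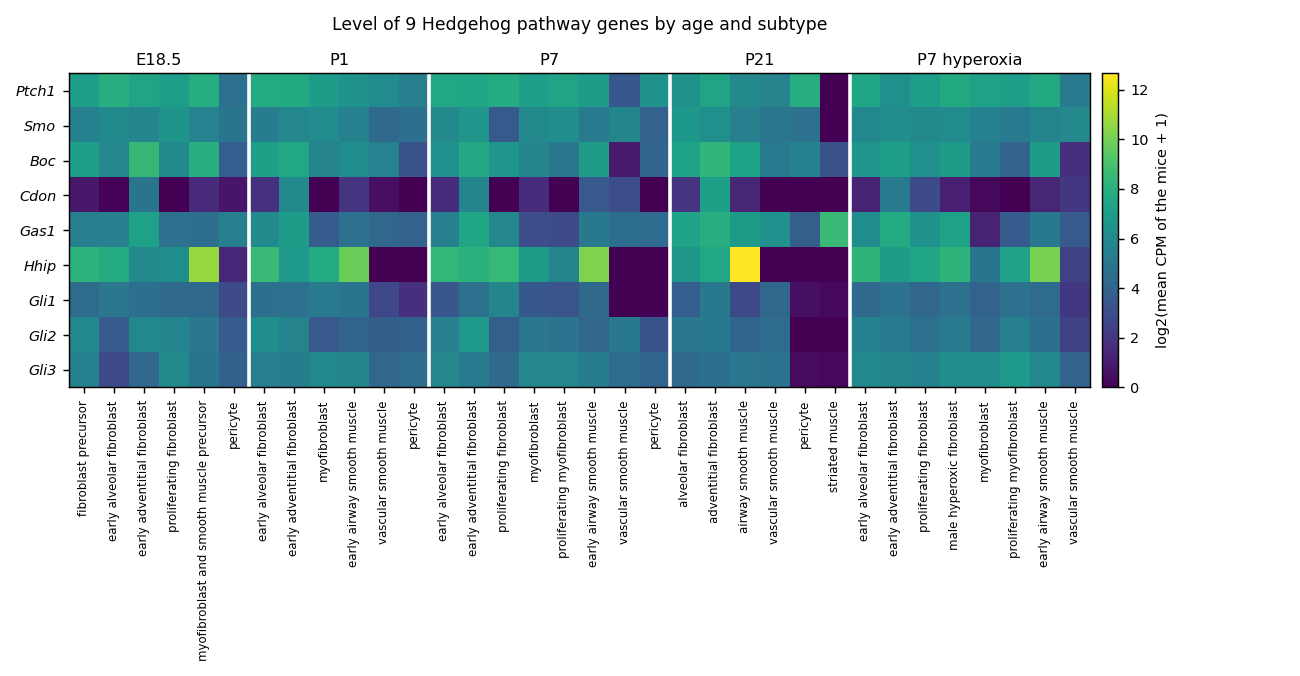
Level of the 9 Hedgehog genes (rows) in each subtype, age and treatment (columns), as log2 of the mean CPM plus 1 over the mice with at least 10 cells; brighter (yellow) is higher and darker is lower. Hhip is brightest in the myofibroblast and smooth muscle precursor and airway smooth muscle columns and dark in vascular smooth muscle and pericytes, and Cdon is dark in all but the adventitial columns and a few others.

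The ligands themselves had very few reads. Shh had 279 reads in 32 of 5480 cells, Ihh 385 reads in 30 cells and Dhh 244 reads in 76 cells, of which 54.5% lay in 1 cell. Over all cells this amounts to 0.057, 0.0787 and 0.0499 CPM, against 159 CPM for Ptch1 and 442 CPM for Hhip on the same scale. None of the 3 passed the low-count filter in the comparisons of ages or of hyperoxia.

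Hhip, the membrane-bound and secreted inhibitor that binds Hedgehog ligand, had the widest range in CPM of the 9. At E18.5 it was highest in the myofibroblast and smooth muscle precursors, at 1705 and 1652 CPM. Fibroblast precursors followed at 329 and 253 CPM, and pericytes had 0 and 3.53 CPM. The 2 precursor populations did not overlap. After birth the highest level was always in the airway smooth muscle labels: 818 and 959 CPM at P1, 946 and 1393 CPM at P7, and 6176 and 6785 CPM at P21. At no age did any other subtype overlap them. Early alveolar fibroblasts came next in the postnatal normal-air groups with both mice, at 381 and 382 CPM at P1 and 344 and 324 CPM at P7, until P21, when adventitial fibroblasts (153 and 235 CPM) stood above alveolar fibroblasts (90.6 and 113 CPM). In vascular smooth muscle and pericytes Hhip was at or next to 0 after birth in normal air, with a highest value of 0.0765 CPM.

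**Figure D2:**
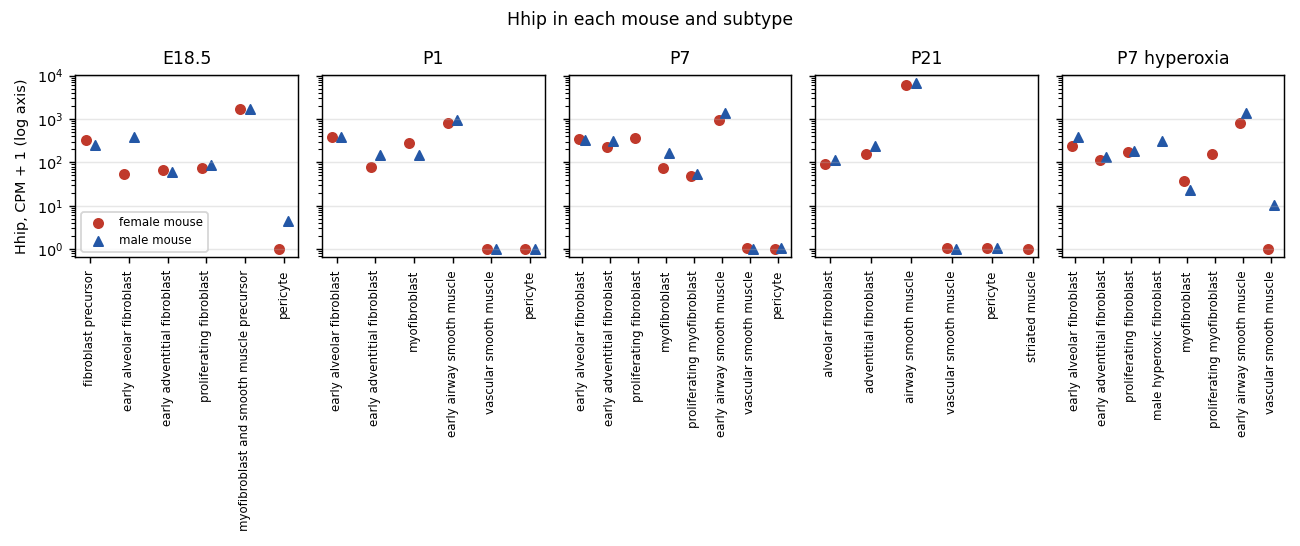
Hhip level as CPM plus 1 (log axis) in each subtype, 1 point per mouse (circles female, triangles male), with a panel for each age and treatment. The 2 mice of P21 airway smooth muscle sit at 6176 and 6785 CPM, above every other library, and vascular smooth muscle and pericytes lie at or near the bottom of the panels.

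The difference was one of how many cells carried Hhip as well as how much. With each cell thinned to 100000 reads, 56 of 58 cells (96.6%, 95% Wilson interval 88.3% to 99.0%) of the P21 female and 52 of 54 (96.3%, 87.5% to 99.0%) of the male labelled airway smooth muscle had a Hhip read; without thinning the shares were 96.6% and 96.4%. In vascular smooth muscle of the same mice, with median depths of 607642 and 1182842 reads per cell against 792483 and 701303, 0 of 32 and 0 of 19 thinned cells did, which by the limit of 3 cells of the total allows shares of up to 9.38% and 15.8% (unthinned 3.03% and 0%). Early airway smooth muscle ranged from 81.8% to 100% of cells and the E18.5 precursors were at 96.0% and 92.5%. At P21 no single cell dominated: the top cell held 5.76% and 6.35% of the reads, and the median cell had 4339 and 5427 CPM. Myofibroblasts at P7 were different. There 18.4% and 27.5% of thinned cells had a read, 4 and 5 cells held more than 50% of the reads, and the median cell was at 0.

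Hhip and Cdon were the members with the highest library furthest above the median library. The 250 bases before their annotated starts (RefSeq, GRCm38.p6) differ in composition. Hhip lies on the minus strand with this stretch at chr8:80058009-80058258, and Cdon on the plus strand at chr9:35451826-35452075. CG dinucleotides, the sites of DNA methylation, are in capitals, and both are written 5′ to 3′ on the gene's strand.
Hhip: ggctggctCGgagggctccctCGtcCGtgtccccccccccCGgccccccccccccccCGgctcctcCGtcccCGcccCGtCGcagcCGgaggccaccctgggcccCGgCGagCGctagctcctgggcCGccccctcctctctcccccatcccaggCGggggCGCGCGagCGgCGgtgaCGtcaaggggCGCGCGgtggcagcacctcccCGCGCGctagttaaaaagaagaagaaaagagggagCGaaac
Cdon: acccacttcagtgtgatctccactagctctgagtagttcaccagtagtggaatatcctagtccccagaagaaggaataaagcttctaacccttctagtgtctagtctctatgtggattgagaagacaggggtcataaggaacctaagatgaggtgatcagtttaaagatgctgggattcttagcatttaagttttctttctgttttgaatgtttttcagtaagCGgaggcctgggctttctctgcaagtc
The Hhip stretch holds 28 CG dinucleotides at 76.0% G and C, and the Cdon stretch holds 1 at 42.8%. Over 32851 RefSeq promoter windows of 300 bases (250 before and 50 after the start) the medians were 7 and 52.7%. In such windows Hhip had 30 at 73.7% and Cdon 3 at 44.7%. The evenly read Ptch1 (47 at 76.3%), Gli3 (39 at 71.0%) and Smo (17 at 67.7%) were above the medians as well. So were Gli2 (28 at 67.3%) and Gas1 (17 at 62.3%), so a CG-rich start was not particular to Hhip. The Gli core motif GACCACCCA (reverse complement TGGGTGGTC) was searched on both strands. It was found in 0 of the 7 members with a window in that table and in 83 of all 32851 windows (0.253%). Gli1 and Boc had no entry.

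Tests between subtypes were made within mice, in 1 edgeR quasi-likelihood fit over all 64 libraries with the mouse as a block. A gene was called at a Benjamini-Hochberg adjusted p below 0.05 over 17323 genes. Subtypes had been named by the authors from the same cells, so these differences are not independent of the naming. At E18.5, Hhip was higher in myofibroblast and smooth muscle precursors than in fibroblast precursors by 2.51 on the log2 scale (SE 0.56, edgeR adjusted p = 0.0044). It was the only member called there, where 5.26% of all genes were called. In early adventitial fibroblasts (65.2 and 57.8 CPM) Hhip was lower than in fibroblast precursors by a log2 difference of -2.26 (SE 0.57, edgeR adjusted p = 0.0226). Cdon was higher there, and these 2 were the members called where 2.68% of genes were. At P7, Hhip in early airway smooth muscle exceeded that in myofibroblasts (71.3 and 167 CPM) by 3.35 (SE 0.58, edgeR adjusted p = 0.0028), the single member called where 0.86% of genes were. At P21, the cells labelled airway smooth muscle exceeded alveolar fibroblasts by 6.00 (SE 0.66, edgeR adjusted p = 4.46e-07), again the single member called, where 6.14% of genes were.

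Each of these Hhip calls except the last ended when a mouse was left out, which leaves a lone sample assumed to vary like the rest, while the differences themselves kept their size. The E18.5 precursor difference was 2.40 (adjusted p = 0.0573) without the male at that age, ME18.5. The adventitial difference was -2.11 (0.166) without the female, FE18.5, and -2.29 (0.137) without ME18.5. The difference from myofibroblasts was 3.05 (0.203) without FP7 and 3.71 (0.205) without the P7 male, MP7. DESeq2 did not call Hhip in either E18.5 comparison (2.58, adjusted p = 0.156, and -2.10, adjusted p = 0.324).

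Between the 2 kinds of smooth muscle the contrast took in more of the pathway. At P7, 4 of 9 members were higher in early airway than in vascular smooth muscle, where 4.11% of all genes were called: Hhip, Boc, Ptch1 and Gli1. Boc, a co-receptor that presents ligand to Ptch1, stood at 63.9 and 193 CPM in the airway cells and at 0.785 and 1.03 CPM in the vascular cells, a log2 difference of 7.26 (SE 1.06, edgeR adjusted p = 3.95e-05). Ptch1 stood at 144 and 99.7 CPM against 11.3 and 9.33 CPM, a difference of 3.55 (SE 0.87, edgeR adjusted p = 0.0132). For both genes the groups lay far apart. Gli1 had 3599 reads against 3 in the vascular cells, a ratio of 388 (exact 95% interval 133 to 1881; edgeR adjusted p = 0.0391). Hhip had 194120 reads against 1, a ratio whose interval runs from 11262 to 2478560. The Ptch1 call ended without FP7 (adjusted p = 0.219) or MP7 (0.186), and that of Gli1 likewise (0.346 and 0.294). Smo, Gas1, Gli2, Gli3 and Cdon did not pass the test in this contrast. At P21 Hhip was again higher in the airway label, with 505109 reads against 1 (ratio interval 40244 to 8856600), as the single member called where 4.56% of genes were; Boc, at 138 and 191 CPM against 27.6 and 42.9 CPM, had adjusted p = 0.0533.

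Ptch1, the ligand receptor, was read in nearly every subtype, and the order of its levels changed with age. At E18.5 all subtypes but pericytes overlapped with a neighbour in the order, with means led by early alveolar fibroblasts (104 and 382 CPM) and the myofibroblast and smooth muscle precursors (241 and 221 CPM). At P1 and P7 early alveolar fibroblasts (236 and 204 CPM, then 150 and 221 CPM) and early adventitial fibroblasts (159 and 259 CPM, then 238 and 126 CPM) were high and overlapped. At P21 the highest level was in pericytes, at 228 and 244 CPM, above adventitial fibroblasts (152 and 184 CPM), alveolar fibroblasts (123 and 58.7 CPM) and the airway label (58.9 and 61.5 CPM). Of thinned P21 pericytes 60.9% (interval 49.1% to 71.5%) and 54.2% (42.7% to 65.2%) had a Ptch1 read, against 25.9% and 20.4% of cells labelled airway smooth muscle; unthinned, these were 70.0% and 56.0% against 46.6% and 25.5%. In these same pericytes Gli1 and Hhip, the other members read as pathway output, stood at 0.0868 and 0.822 CPM and at 0.0434 and 0.0765 CPM, and Gli2 was at 0 in both mice. At P7, Ptch1 was lower in vascular smooth muscle than in pericytes (158 and 23.0 CPM) by a log2 difference of -2.96 (SE 0.88, edgeR adjusted p = 0.0413), and Boc by -4.20 (SE 1.22, edgeR adjusted p = 0.0333); 5.66% of genes were called. Both calls ended without FP7 (adjusted p = 0.852, with the Ptch1 difference at -1.26, and 0.200) or MP7 (0.128 and 0.120).

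Smo, the membrane protein that carries the signal inward, was among the most evenly read members. Its median library had 48.7 CPM. At P7 early adventitial fibroblasts were highest, at 90.7 and 99.8 CPM, and did not overlap the next subtype, proliferating myofibroblasts (82.5 and 65.4 CPM). In the other normal-air groups the leading subtype overlapped its neighbour: proliferating fibroblasts at E18.5 (126 and 57.8 CPM), myofibroblasts at P1 (95.9 and 38.0 CPM) and alveolar fibroblasts at P21 (67.2 and 147 CPM). Smo was called in none of the 36 comparisons planned here.

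The co-receptors Boc, Gas1 and Cdon, which bind ligand beside Ptch1, shared a place of highest level: the adventitial fibroblasts, the cells around larger airways and vessels. Boc led there at E18.5 (291 and 396 CPM), ahead of myofibroblast and smooth muscle precursors (237 and 265 CPM), and at P21 (287 and 355 CPM), ahead of the airway label (138 and 191 CPM). At P1 (122 and 244 CPM) and P7 (269 and 124 CPM) the adventitial mice overlapped the next subtype. Gas1 led there at E18.5 (154 and 148 CPM) and P7 (164 and 193 CPM) without overlap, and at P1 (196 and 57.0 CPM) with overlap. At P21 the adventitial level was 238 and 230 CPM, above alveolar fibroblasts (160 and 161 CPM). The 16 striated muscle cells of the P21 female had 384 CPM, of which 66.1% of reads lay in 1 cell.

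Cdon was nearly confined to adventitial fibroblasts in level. It stood at 26.1 and 30.6 CPM at E18.5, 84.3 and 48.7 CPM at P1, 11.4 and 96.8 CPM at P7 and 120 and 161 CPM at P21, while the highest library of any other subtype had 20.3 CPM. That library was the early airway smooth muscle of the P7 male, above the P7 adventitial female, so these subtypes overlapped at P7. At E18.5, P1 and P21 no other subtype overlapped the adventitial fibroblasts. At P21, 58.9% (interval 51.0% to 66.5%) and 35.7% (26.3% to 46.4%) of thinned adventitial cells had a Cdon read, against 1.70% and 0% of alveolar fibroblasts; unthinned, the shares were 63.4% and 41.2% against 2.76% and 5.80%. Adventitial fibroblasts held 93.5% and 98.7% of all Cdon reads of the P21 mice. Cdon was higher than in alveolar fibroblasts at P21 by 5.47 on the log2 scale (SE 1.31, edgeR adjusted p = 0.0134), the single member called where 3.77% of genes were. At E18.5 it was higher than in fibroblast precursors by 5.28 (SE 1.34, edgeR adjusted p = 0.0247), though 3 of 26 female and 11 of 29 male cells carried the reads and 71.4% of the female's lay in 1 cell. At P7 the difference from early alveolar fibroblasts was 4.45 (SE 1.34, edgeR adjusted p = 0.0569), none of the 9 being called where 4.1% of genes were. In the P7 male 57.1% of adventitial Cdon reads lay in 1 cell, and without FP7, that is with the male alone, the difference was called (edgeR adjusted p = 0.0041). With both mice it was called with at least 20 cells per library (adjusted p = 0.0387), by DESeq2 (0.0393) and by limma on per-cell means (0.0446). The P21 call ended without FP21 (adjusted p = 0.0680) or the P21 male, MP21 (0.316), and the E18.5 call without FE18.5 (0.415) or ME18.5 (0.209).

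The Gli transcription factors had lower medians per kilobase than every other member but Cdon. Gli1, the activator that is also a target, ranged from 0 to 64.9 CPM, and neighbouring fibroblast subtypes mostly overlapped. At P7 early adventitial fibroblasts (26.9 and 24.3 CPM) stood above early airway smooth muscle (22.6 and 17.3 CPM), and both above myofibroblasts (12.0 and 8.24 CPM). Vascular smooth muscle (0 and 0.123 CPM) and pericytes (0.105 and 0 CPM) had next to none at P7. The cells labelled airway smooth muscle at P21, where Hhip peaked, had Gli1 at 1.52 and 10.4 CPM, below early airway smooth muscle at P7, and 81.0% and 89.8% of those reads lay in 1 cell per mouse. Gli2, the main activator downstream of Smo, led in early alveolar fibroblasts at P1 (82.5 and 73.9 CPM) without overlap; its highest library, 184 CPM, was the adventitial fibroblasts of the P7 male, whose female counterpart had 34.0 CPM. Gli3, the factor best known as a repressor, was highest in myofibroblasts at P7 (58.9 and 56.5 CPM), where proliferating myofibroblasts (71.3 and 43.0 CPM) and early alveolar fibroblasts (38.2 and 75.2 CPM) overlapped it. None of the Gli genes was called between myofibroblasts and early alveolar fibroblasts at P7 (0 of 9 members, with 6.18% of genes called, and Hhip at -1.59, adjusted p = 0.085) or between proliferating and other myofibroblasts (0 of 9, with 0.947% called).

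Age was compared within classes, in which early and later fibroblast or airway labels were joined and libraries were scaled within the class, so levels differ from those above. At P21 the airway class joined 4 and 2 cells labelled early airway smooth muscle to the 58 and 55 cells of the later label. Hhip in airway smooth muscle was the single member called in any of these steps. From P7 to P21 it rose from 927 and 1378 CPM to 5756 and 6390 CPM (means 1153 ± 319 and 6073 ± 449, SD, n = 2). This is a log2 change of 2.43 (SE 0.32, edgeR adjusted p = 0.0116) or 5.39-fold, and it was the single member called in a comparison that called 1.13% of genes. It was higher in both mice, and the groups lay far apart. No other member was called there. Ptch1 went from 141 and 98.6 CPM to 103 and 110 CPM, where the 113 cells of the later label held 4700 of the 9104 Ptch1 reads and the 6 early-labelled cells the rest; in the later label alone Ptch1 was 58.9 and 61.5 CPM. Gli1 went from 22.1 and 17.1 CPM to 2.93 and 9.55 CPM (adjusted p = 0.63) and Gas1 from 26.9 and 38.6 CPM to 110 and 118 CPM (adjusted p = 0.45). The low contractile markers of the P21 label were a measured difference between the same groups: the 4 airway smooth muscle markers summed to 711 and 624 CPM at P21, against 3705 to 8360 CPM in the 6 early airway smooth muscle libraries. The 4 adventitial fibroblast markers summed to 1100 and 1557 CPM in the P21 cells, against 73.2 to 274 CPM in the early libraries. The 4 myofibroblast markers summed to 3397 to 4318 CPM in the P21 cells, above their own airway markers and the highest of the P21 libraries. In the early libraries the myofibroblast markers summed to 14165 to 17594 CPM, likewise above their own airway markers. The 6 myofibroblast libraries had 5015 to 8406 CPM, so this list is not particular to myofibroblasts. The part of these marker differences in the Hhip change cannot be told apart from age. The call also rested on the P7 mice: without FP7 the change was 2.34 (adjusted p = 0.124) and without MP7 2.51 (adjusted p = 0.0947).

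**Figure D3:**
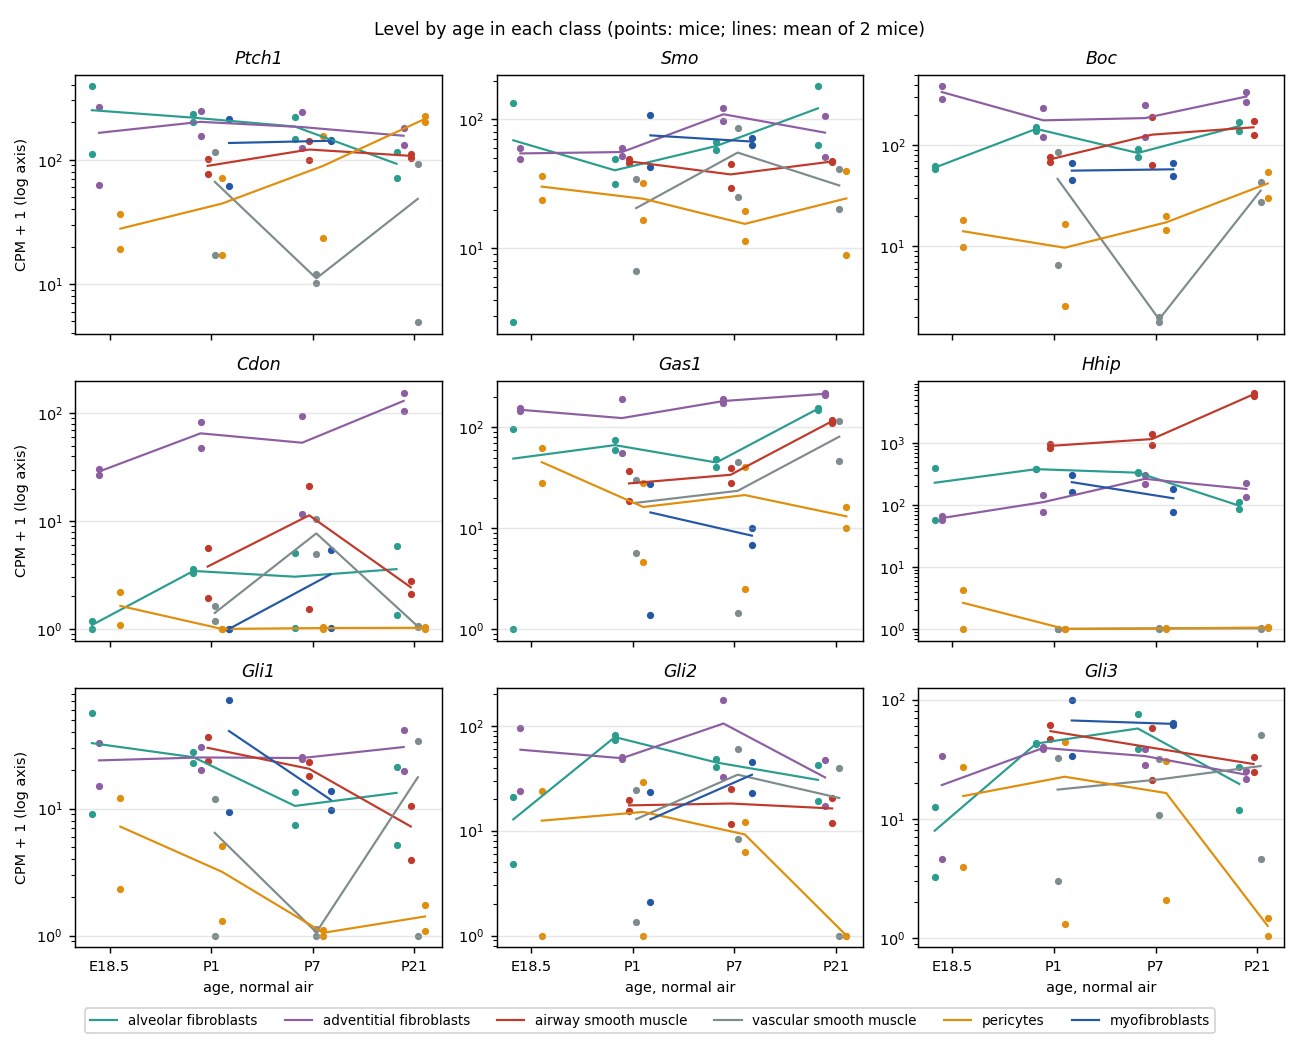
Level of each gene as CPM plus 1 (log axis) across age in normal air, 1 panel per gene and 1 colour per class, with a point per mouse and lines through the mean of the 2 mice. Hhip in airway smooth muscle lies at 5756 and 6390 CPM at P21, above its P7 points, and no other step drawn between neighbouring ages passed the test.

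In alveolar fibroblasts over the same interval Hhip went the other way, from 336 and 323 CPM to 83.7 and 108 CPM (log2 change -1.83, adjusted p = 0.67, not called). The difference between the 2 changes was tested after the values had been seen. Airway smooth muscle minus alveolar fibroblasts gave 4.25 for Hhip (SE 0.78, edgeR adjusted p = 0.0061), the single member called where 0.496% of genes were. Against adventitial fibroblasts the difference was 2.97 (SE 0.76, edgeR adjusted p = 0.0893), with 0.317% of genes and no member called. No member was called against vascular smooth muscle (0.71% of genes) or pericytes (1.51%).

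No other age step called a member. In alveolar fibroblasts 0 of 9 were called from E18.5 to P1, although 6.16% of genes were, 956 of 966 of them higher, and the median of all genes shifted by 1.35 on the log2 scale. The E18.5 libraries held 14 and 24 cells. Gli2 went from 19.8 and 3.81 CPM to 81.3 and 72.8 CPM (log2 change 3.02, adjusted p = 0.111), and Gli3 from 2.23 and 11.7 CPM to 42.0 and 41.5 CPM (2.73, adjusted p = 0.203). These values depended on single mice: without FE18.5 Gli2 was called (log2 change 4.10, edgeR adjusted p = 0.0036), as was Gas1 from 0 reads, and without ME18.5 Gli3 (4.21, adjusted p = 0.0266), Hhip (2.66, 0.0102) and Smo (4.42, 0.0165) were. The same 0 of 9 held from P1 to P7 (0% of genes) and from P7 to P21 (0.0702%). In adventitial fibroblasts the 3 steps called 0.17%, 0% and 0.124% of genes and no member. Hhip there was 64.8 and 56.0 CPM at E18.5, 76.2 and 144 CPM at P1 and 220 and 305 CPM at P7, with no overlap between neighbouring ages and adjusted p = 0.56 and 0.83 for the 2 steps. For pericytes the steps called 0.042%, 0% and 0.0504% of genes and none of the 7 members that passed the low-count filter, Hhip and Cdon having too few reads. Ptch1 in pericytes went from 155 and 22.4 CPM at P7 to 202 and 223 CPM at P21 (adjusted p = 0.96). Vascular smooth muscle (0% from P1 to P7, 0.0886% from P7 to P21), myofibroblasts (0% from P1 to P7) and airway smooth muscle from P1 to P7 (0%) likewise called no member. Without MP1, Gli2 in myofibroblasts had a log2 change of 5.10. DESeq2 called Boc in vascular smooth muscle from P1 to P7 (-5.39, adjusted p = 0.0113) and from P7 to P21 (5.29, adjusted p = 0.0077). It called Gli1 there from P7 to P21 (13.6, adjusted p = 0.0042), where the P21 male had 0 CPM. Gli2 in pericytes from P7 to P21, at 0 CPM in both P21 mice, was called by DESeq2 (-12.6, adjusted p = 0.0101) and limma voom (-9.56, adjusted p = 0.0120). At an unadjusted edgeR p below 0.05, 319 to 3287 genes passed in each of the age and hyperoxia comparisons.

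Across birth the names change with age, and the comparison was made from each precursor to its likely successor. From the myofibroblast and smooth muscle precursors at E18.5 to myofibroblasts at P1, Hhip fell from 1830 and 1764 CPM to 307 and 162 CPM, by 2.96 on the log2 scale (SE 0.52, edgeR adjusted p = 0.0366). Boc fell from 254 and 283 CPM to 66.5 and 44.9 CPM, by 2.26 (SE 0.39, edgeR adjusted p = 0.0342). These were 2 of 9 members where 1.47% of genes were called, and neither gene's groups overlapped. The limma voom fit with the mouse as a random block kept Hhip (adjusted p = 0.0081) and not Boc (-2.42, adjusted p = 0.102). Both calls ended without FE18.5 (adjusted p = 0.247 for Hhip and 0.253 for Boc), ME18.5 (0.225 and 0.248) or the P1 male, MP1 (0.0525 and 0.0557). Without MP1 Gli2 (log2 change -4.99, adjusted p = 0.0384) and Ptch1 (-1.99, 0.0368) were called, and without the P1 female, FP1, Gas1 was (-6.62, 0.0395). Towards early airway smooth muscle at P1 0.745% of genes were called. Hhip went to 836 and 979 CPM there (log2 change -0.90, edgeR adjusted p = 0.306). Boc went to 68.4 and 77.3 CPM (-1.79, edgeR adjusted p = 0.13), and neither gene was called. DESeq2 called Boc in this comparison (-1.74, adjusted p = 0.0074), as did limma on per-cell means (-1.63, adjusted p = 0.0483). From fibroblast precursors to early alveolar fibroblasts 0.125% of genes and no member were called, with Hhip at 326 and 255 CPM before and 382 and 384 CPM after. A single limma voom fit of every library with the mouse as a random block called Hhip (log2 change 0.51, adjusted p = 6.44e-05) and Ptch1 (0.65, adjusted p = 0.0181) there. The comparisons to myofibroblasts and to airway smooth muscle share their E18.5 cells.

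Hyperoxia called no member in any of 5 classes, and no gene at all: 0% in alveolar fibroblasts, 0% in adventitial fibroblasts, 0% in myofibroblasts, 0% in airway smooth muscle and 0% in vascular smooth muscle. Hhip stood apart between the 2 groups in adventitial fibroblasts and in myofibroblasts. In adventitial fibroblasts it was 220 and 305 CPM in normal air and 103 and 126 CPM in hyperoxia, a log2 difference of -1.18 (SE 0.37, edgeR p = 0.0093, adjusted p = 0.62). Ptch1 was 241 and 123 CPM against 73.4 and 76.8 CPM (-1.36, SE 0.58, edgeR p = 0.0412, adjusted p = 0.62), and Smo 121 and 96.0 CPM against 72.4 and 68.1 CPM. In these 3 genes both hyperoxia mice lay below both normal-air mice. In 2 others both lay above: Gas1 was 174 and 188 CPM against 189 and 212 CPM (edgeR adjusted p = 0.96), and Gli3 27.5 and 37.7 CPM against 46.0 and 53.7 CPM (edgeR adjusted p = 0.89). The share of all genes with mice apart in this way was not taken, so these counts do not mark the pathway out. The shares of thinned adventitial cells with a Hhip read overlapped: 49.0% and 43.4% in normal air and 45.3% and 56.9% in hyperoxia (unthinned 53.1% and 49.1%, then 47.7% and 62.9%). Summed mesothelial markers (3 genes) in the early adventitial libraries were 207 and 0.0489 CPM in normal air and 543 and 626 CPM in hyperoxia, with 1 of the 3 genes at 0 in the normal-air male alone, and their part in these values was not tested.

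In myofibroblasts Hhip was 75.9 and 178 CPM in normal air and 41.1 and 23.6 CPM in hyperoxia, a log2 difference of -2.03 (SE 0.60, edgeR p = 0.0127, adjusted p = 0.65). The mice did not overlap, and the number of cells was 155 and 184 against 58 and 45. DESeq2 called this difference (-2.02, adjusted p = 0.0215), the single hyperoxia call of that tool among the 9 members. The difference was -0.86 without MP7 and -3.02 without FP7, so its size rests on which P7 mouse is kept. Summed immune markers (5 genes) moved as well, from 71.7 and 38.7 CPM to 134 and 88.7 CPM, with 1 of the 5 at 0 in each normal-air and 2 in each hyperoxia library, and their part was not tested. In airway smooth muscle the groups overlapped, with Hhip at 927 and 1378 CPM and at 803 and 1422 CPM (log2 difference -0.07, SE 0.30), and they did in alveolar fibroblasts, at 336 and 323 CPM and at 232 and 359 CPM (-0.24, SE 0.69). The difference of the hyperoxia effect between myofibroblasts and early alveolar fibroblasts was -1.70 for Hhip (SE 0.77, edgeR p = 0.0354, adjusted p = 1), and that between early airway smooth muscle and myofibroblasts was 1.80 (SE 0.77, edgeR p = 0.0267, adjusted p = 1). These comparisons called 0.00577% and 0% of genes, and that of adventitial against alveolar fibroblasts 0%, with no member in any. Run and hyperoxia cannot be told apart, since the normal-air mice at P7 came from other runs. The 55 cells labelled male hyperoxic fibroblast, all from 1 mouse, had Hhip at 302 CPM, Ptch1 at 205 CPM and Gli1 at 26.1 CPM, within the range of the early alveolar fibroblasts of the hyperoxia mice for Hhip and Ptch1 and above it for Gli1 (20.0 and 18.8 CPM).

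**Figure D4:**
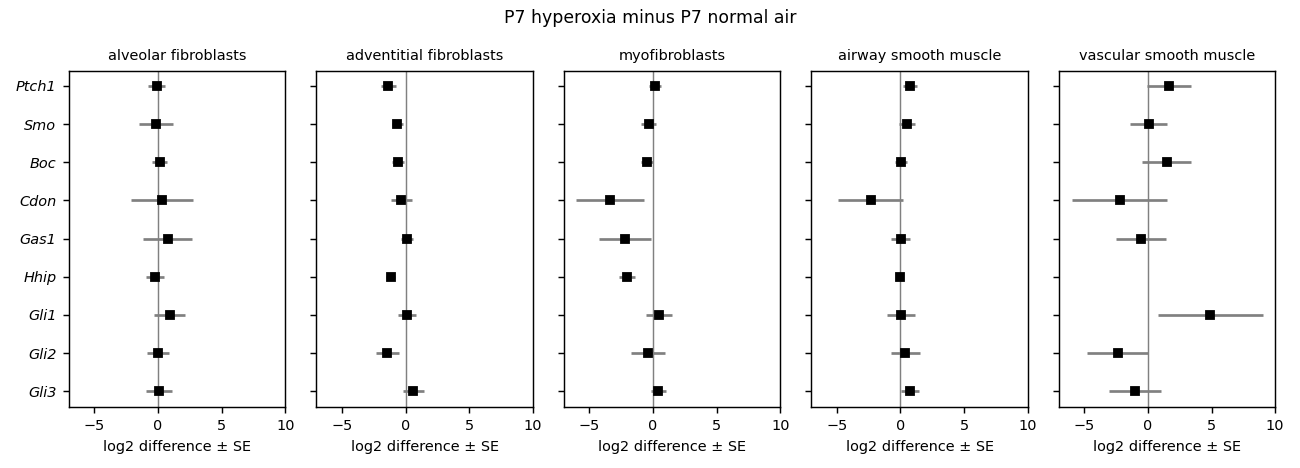
Log2 difference of hyperoxia minus normal air at P7 for each gene (rows) in 5 classes (panels). Squares are the fitted differences over 2 mice a group. Bars are 1 SE, derived from the difference and its F statistic. Hhip lies at -1.18 in adventitial fibroblasts and -2.03 in myofibroblasts and near 0 in airway smooth muscle, it was not tested in vascular smooth muscle, and no gene passed the test.

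A further 38 genes of the pathway were followed from a list: ligands, proteins of ligand release, other binding proteins, signal relay, primary cilium and reported targets. In the age, precursor and hyperoxia comparisons 30 to 36 of them passed the low-count filter. Of 38, 5 rose in alveolar fibroblasts from E18.5 to P1, where 6.16% of all genes were called and the whole distribution had shifted: Scube2, which helps release ligand (27.6 and 30.3 to 151 and 137 CPM), Gpc3, a proteoglycan that binds ligand (406 and 483 to 1292 and 1638 CPM), Evc, Evc2 and Ift88. The last 3 had 0, 1 and 0 reads at E18.5. Ccnd1 (3.64 and 5.38 to 112 and 70.4 CPM) and Ccnd2 (53.2 and 44.2 to 878 and 1182 CPM), cyclins of the G1 phase, rose from the myofibroblast and smooth muscle precursors to myofibroblasts (1.47% of all genes called). Ccnd2 alone rose towards early airway smooth muscle (49.6 and 41.4 to 264 and 335 CPM; 0.745% of all genes called). The median log2 change of those that passed ranged from -0.43 to 0.74 in these comparisons, and no listed gene was called in the other age steps or in hyperoxia.

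The shares of all genes called in the subtype comparisons, given above, ran from 0.86% to 6.18%, and the listed genes are read against them. Foxf1, a mesenchymal transcription factor and reported target, was higher in the precursors with much Hhip than in fibroblast precursors (400 and 513 against 43.3 and 41.0 CPM), where Scube1 was also higher and Disp1, Scube2, Gpc3 and Ccnd2 were lower. It was higher in P7 myofibroblasts than in early alveolar fibroblasts (a log2 difference of 3.86, from 34.8 and 2.17 CPM in the latter), as were Scube1 and Ccnd1, with Scube2 and Gpc3 lower. At P7 early airway smooth muscle had more Scube2 and less Ccnd1 and Ccnd2 than myofibroblasts, and more Foxf1 (381 and 269 against 52.4 and 18.0 CPM) and Scube1 and less Scube3 and Ccnd2 than vascular smooth muscle. Vascular smooth muscle had more Disp1, Scube3 and Spop than pericytes, and less Foxf1 and Foxf2 (5.98 and 43.6 against 321 and 157 CPM). The P21 airway label had more Foxf1 (359 and 89.8 against 30.9 and 12.5 CPM) and less Scube2, Gpc3 and Ccnd2 than alveolar fibroblasts. Against vascular smooth muscle it had more Scube2 and Ift88 and less Scube3, Gpc3, Foxl1 and Ccnd2 (38.0 and 31.1 against 443 and 1181 CPM). Adventitial fibroblasts had more Foxl1 and Ccnd2 and less Scube2 (18.0 and 25.0 against 1251 and 1528 CPM) and Foxf2 than alveolar fibroblasts at P21. At P7 they had less Foxf2 (16.8 and 10.4 against 80.6 and 102 CPM), and more Lrp2 through 1 mouse (7.78 and 0.0527 CPM). Disp2 in proliferating myofibroblasts was likewise called through 1 mouse (8.47 and 0.123 CPM).

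Among 9468 genes with a mean of at least 10 CPM, the levels most like those of Hhip over the 64 libraries were those of Lpar1 (Pearson r = 0.85 on log2 of CPM plus 1), Fgf7 (0.85), Tmem132c (0.84), Adgrg2 (0.84) and Gata5 (0.83). For Gli1 they were Lpar1 (0.79), Fgf7 (0.77), Tmem132c (0.77), Gas7 (0.76) and Mtch1 (0.76), so that 3 of 5 names were those found for Hhip. Ptch1 gave other names: Gfra2 (0.82), Ccdc127 (0.72), Cacfd1 (0.72), Scarf2 (0.71) and Col6a2 (0.71). Between members, Hhip and Boc (0.71), Hhip and Gli1 (0.70) and Gli1 and Boc (0.66) were most alike, and Smo and Gas1 least (-0.10). These are descriptions over libraries that share mice and subtypes, with no test.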

How the data were processed

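Gene-level read counts of 5480 plate-sorted cells were deposited by the authors as 1 table, with subtype, mouse and sort in the labels. Reads had been aligned and counted with STAR 2.5.2b and HTSeq 0.10, per the submitters' processing notes; the build named there is a human one, and the mouse build is not given in the sources used here. Counts carry no molecular identifiers. Counts were summed per mouse and subtype (at least 10 cells), scaled by TMM and tested two-sided with edgeR 4.0.16 (R 4.3.3) quasi-likelihood fits: within a class with a term for sex (6 to 10 libraries), and within mice in 1 fit of 64 libraries with the mouse as a block. The latter used edgeR's newer quasi-likelihood setting and the class fits its classic one, so counts of calls are not alike between them. Each SE given with an edgeR value is the size of the log2 difference divided by the square root of its F statistic. It is not a separate estimate of the fit. Genes with low counts were left out by filterByExpr, p-values were adjusted over all genes tested, and 0.05 was the threshold. Exon lengths came from GENCODE M21 (99.7% of genes matched). Cells were thinned to 100000 reads for shares, leaving out shallower cells: 25 of 1206 at E18.5, 74 of 1203 at P1, 37 of 1176 at P7, 21 of 835 at P21 and 11 of 1060 in hyperoxia. DESeq2 1.42.0 and limma 3.58.1 were alternatives, and the edgeR scripts were tested on simulated data. The text names all 9 genes, the 3 ligands, those of 38 further pathway genes past the threshold (Hhatl was not analysed here, and 1 listed gene is not reported here), and the 5 genes most like Hhip, Gli1 and Ptch1. The members and lists were chosen with earlier results of these data known.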

Additional observations from a re-analysis of the deposited data

Results flagged for a closer look

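The change of Hhip from P7 to P21 differed between 2 classes. It was higher by 4.25 on the log2 scale (SE 0.78, edgeR adjusted p = 0.0061) in airway smooth muscle than in alveolar fibroblasts, in a contrast chosen after the values were seen. Both comparisons share the P7 and P21 mice. The P21 cells with that label held summed airway smooth muscle markers of 711 and 624 CPM, against 3705 to 8360 CPM in the 6 early airway smooth muscle libraries, and the part of that marker difference in the Hhip value was not tested.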

How the results depend on the processing

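No result reversed. The count of members called in the age steps, 1, became 4 with limma voom, 0 with the 2 groups alone, 3 with at least 20 cells, 7 with DESeq2 and 3 with limma on per-cell means. Totals without a mouse are not given for the age, precursor or hyperoxia comparisons. Only the comparisons holding the group of that mouse were refitted, with a lone sample in that group. For the subtype calls, the range without a mouse given below counts calls that were not refitted as kept. That range therefore does not show that those calls held. Calls that ended without a mouse are named with each result above. For the precursor comparisons 2 became 4 with limma voom (1 of the 2 kept), 0 with the 2 groups alone, 4 with DESeq2 and 3 with limma on per-cell means. For hyperoxia 0 became 1 with DESeq2, Hhip in myofibroblasts. The 13 calls between subtypes became 5 with the compared mice alone and 8 to 12 without a mouse; DESeq2 gave 14, of which 11 were among the 13. The causes were not tested, except that fits on the compared mice alone hold fewer samples. With the compared groups alone Hhip in airway smooth muscle from P7 to P21 had adjusted p = 0.0718. The 4 calls that held in every setting were Hhip and Boc in early airway against vascular smooth muscle at P7 and Hhip in the P21 airway label against vascular smooth muscle and against alveolar fibroblasts. The median share of cells with a read was 26.1% thinned, 31.2% unthinned and 23.1% at 50000 reads. No paired analysis was possible because, for ages and hyperoxia, each mouse belongs to 1 group and shares no number with a mouse of another; the subtype tests already hold the mouse as a block.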
